A study of Mus musculus with 12 samples.

Results

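The genes described here are the protein-coding Hox genes of the mouse, with symbols Hoxa, Hoxb, Hoxc or Hoxd followed by a number, and the long noncoding RNA Hotairm1, which is transcribed within the Hoxa cluster. Membership was set by the gene symbol, and the annotation holds 40 of them. Of these, 33 were present in the expression tables: 31 of the 30803 genes of the WT and GSH table and 32 of the 17558 genes of the Ctrl and Cas9 table. All 11 Hoxa genes had values in both tables, with 8 Hoxb and 7 Hoxc genes in each. There were 4 Hoxd genes in the first table and 6 in the second, and Hotairm1 was in the first only. Hoxb1, Hoxb13, Hoxc12, Hoxc13, Hoxd11, Hoxd12 and Hoxd13 were in neither table, so their expression was not analysed here.

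Total RNA was taken for sequencing from 4T1 cells, by their label a line of mouse mammary carcinoma, grown in culture medium with serum. The libraries carry 4 genotype labels. WT and GSH had 3 libraries each, Cas9 had 3 and Ctrl had 1 (Ctrl 3), while the samples Ctrl 1 and 2 were not used. The labels give the same culture treatment to every group, do not say what GSH stands for, name no gene targeted with Cas9 and do not say whether a group is 1 clone. They do not state separate cultures either, so every p-value below is set by library-to-library spread, and that spread may be technical.

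Hox genes encode homeodomain transcription factors that lie in clusters, in an order that matches where along the head-to-tail axis of the embryo they are used. Low-numbered genes at one end of a cluster mark anterior regions and high-numbered genes at the other end posterior ones. Hox proteins bind DNA with partners of the TALE class (Pbx, Meis and Pknox), Polycomb complexes keep unused clusters silent, Trithorax complexes keep used ones active, and retinoic acid is a classical inducer of the low-numbered end. In the mammary gland several Hox genes take part in ductal growth, and HOXA5 has been studied in breast epithelium as a regulator of p53.

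The WT and GSH libraries used the Hoxa cluster, as far as Hoxa10, and almost nothing of the other Hox clusters. The upstream sequences of 2 Hoxa genes are shown, those with the highest FPKM in these libraries. That of a nearly silent member of the same cluster, Hoxa11, is shown beside them, as examples of used and nearly unused genes within 1 cluster. Each is the 250 bases before the RefSeq start of the gene, 5′ to 3′ on the gene's strand, from assembly GRCm38.p6, with CpG dinucleotides in capitals. The Hoxa5 stretch is chr6:52204588-52204837, the Hoxa6 stretch chr6:52208673-52208922 and the Hoxa11 stretch chr6:52245811-52246060, all on the minus strand.
Hoxa5: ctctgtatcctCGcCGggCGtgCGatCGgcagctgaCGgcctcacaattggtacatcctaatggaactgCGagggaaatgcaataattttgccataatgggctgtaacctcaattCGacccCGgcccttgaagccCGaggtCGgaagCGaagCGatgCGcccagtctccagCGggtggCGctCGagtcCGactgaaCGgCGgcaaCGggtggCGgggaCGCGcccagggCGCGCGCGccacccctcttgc
Hoxa6: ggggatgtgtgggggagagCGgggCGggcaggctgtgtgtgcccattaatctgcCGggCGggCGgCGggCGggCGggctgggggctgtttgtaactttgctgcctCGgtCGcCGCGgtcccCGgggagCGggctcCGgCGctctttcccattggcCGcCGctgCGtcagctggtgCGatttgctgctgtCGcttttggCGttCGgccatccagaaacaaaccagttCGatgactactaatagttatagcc
Hoxa11: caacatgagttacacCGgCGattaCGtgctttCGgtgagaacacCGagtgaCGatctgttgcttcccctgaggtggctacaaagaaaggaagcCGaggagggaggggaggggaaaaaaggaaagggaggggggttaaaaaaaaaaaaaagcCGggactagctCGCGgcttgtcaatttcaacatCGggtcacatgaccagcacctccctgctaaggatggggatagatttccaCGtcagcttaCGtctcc
The printed stretches hold 28 CpG in Hoxa5, 24 in Hoxa6 and 13 in Hoxa11, but CpG number did not follow level along the cluster. In windows of 300 bases, nearly silent Hoxa13 had the most CpG of the Hoxa genes (45), while Hoxa2 and Hoxa7 had 9 each and Hoxa9 had 4. RefSeq promoter windows of 300 bases (250 before and 50 after the start) matched 22 of the genes, in 24 windows. Among the 22 are Hoxb1, Hoxd11, Hoxd12 and Hoxd13, which have no expression values in either table. The median of the 24 windows was 14.5 CpG, with 17.5 over the 10 Hoxa windows, against 7 over all 32851 RefSeq windows. Windows with 20 or more CpG made up 45.8% of the Hox windows and 26.5% of all windows. The motif TATAAA, searched on both strands, was in 4 of the 24 Hox windows (16.7%) and in 13.6% of all windows. TGATTNAT, the letters of a joint Pbx and Hox motif, was in 2 of them (8.33%) and in 3.22% of all windows, on either strand. None of the 3 printed genes' windows held either motif. These are letter matches only, and no binding was measured here.

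Whole reads could be recovered from the deposited FPKM values (fragments scaled to transcript length and library total), and the library totals they imply were 18531444 to 30168737 reads for WT and GSH and 33152215 to 39201544 for Ctrl and Cas9. The 2 tables were normalised separately and with gene lengths that matched for 3 of 30 shared Hox genes, so tests were made within a table only. Of 10 carcinoma epithelium markers, 9 or 10 were above 0 in each library, with Krt5 at 0 in WT 1, Cas9 1 and Cas9 2. Their summed level was 1988 to 2208 FPKM in WT and GSH and 2033 to 3222 in Ctrl and Cas9. Epcam, the epithelial adhesion molecule, stood at 282 to 365 FPKM in WT and GSH and at 181 to 318 in Ctrl and Cas9. Cdh1, another of the 10, stood at 203 to 230 and at 51.8 to 113 FPKM. Markers of other cells separated the tables. All 8 endothelial markers were above 0 in every library, and their summed level was 0.714 to 1.10 FPKM in WT and GSH and 77.8 to 181 in Ctrl and Cas9. For 16 leukocyte markers, 15 of which were in the WT and GSH table, the sums were 18.3 to 27.4 and 1907 to 3586 FPKM, although the labels describe cultured cells for each group. Transcripts of secreted odorant-binding and urinary proteins were high in WT 3 (summed FPKM 345), GSH 2 (490) and GSH 3 (193) and lay at 1.75 to 12.5 in the other 3 WT and GSH libraries. The summed level of 7 muscle markers was 76.4 FPKM in WT 2 and 15.7 to 25.5 in the other WT and GSH libraries. The part of the muscle transcripts' source in the Hox values was not tested.

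In the WT libraries the Hoxa cluster summed to 73.0 ± 0.741 FPKM (SD, n = 3), which was 98.4 to 98.9% of all Hox FPKM. Levels varied along the cluster and peaked in its middle. Hoxa5 (ENSMUSG00000038253), which patterns the neck vertebrae and lung in the embryo, made up 42.9% of the cluster's FPKM. Its neighbour Hoxa6 (ENSMUSG00000043219), a gene of the thoracic region, made up 30.1%. The next levels in WT were 4.43 ± 0.118 FPKM for Hoxa3, a gene of the throat pouches, 4.09 ± 0.0767 for Hoxa10, a gene of the uterus and of blood progenitors, and 4.06 ± 0.327 for Hoxa7. Hoxa7 overlapped both of the others across the WT libraries. Hoxa2, the gene of the second pharyngeal arch, followed at 3.43 ± 0.251 FPKM, and Hoxa9 and Hoxa4 stood at 1.21 ± 0.173 and 1.11 ± 0.130 FPKM. The rank of Hoxa6 rests on a gene length of 874 bases in the WT and GSH table. In the Ctrl and Cas9 table its length was 2254 bases, and its share of Hoxa FPKM was 14.5% in Ctrl 3. In reads, Hoxa6 lay below Hoxa3 in every WT and GSH library (419 against 584 in WT 1).

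The posterior end of the cluster was at the limit of detection. Hoxa11, used in the forearm and uterus, had 1 read over the 6 WT and GSH libraries together, where 3 reads over all 6 correspond to 0.00999 FPKM. Hoxa13, used in the digits and urogenital tract, had 7 reads in all and reached 0.0441 FPKM. In a PCR-amplified library without molecular identifiers, such limits cover counting error only. The step from Hoxa10 to Hoxa11 was the steepest in the cluster in these libraries, as the plot of FPKM by position along the cluster shows.

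**Figure D1:**
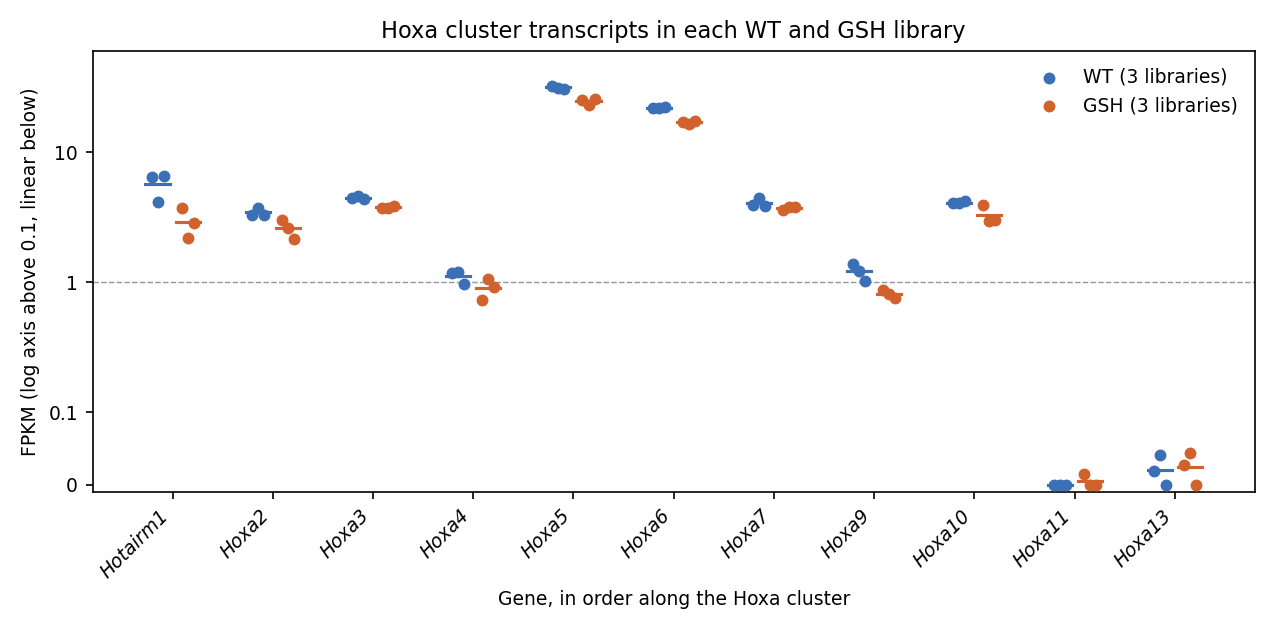
FPKM of 11 Hoxa cluster transcripts (vertical axis, log scale above 0.1 and linear below) in order along the cluster (horizontal axis), with 1 point per library, 3 WT (blue) and 3 GSH (orange), and short bars for group means. The dashed line marks 1 FPKM, the minimum mean for testing; Hoxa5 and Hoxa6 stand highest, Hoxa11 and Hoxa13 lie at or near 0, and GSH points lie below all WT points in each tested transcript shown other than Hoxa4.

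All 10 tested Hox transcripts, each from the Hoxa cluster, had lower mean levels in GSH than in WT libraries, though not all passed the test. In limma's moderated test, 6 of the 10 tested Hox transcripts fell and 0 rose: Hotairm1, Hoxa2, Hoxa3, Hoxa5, Hoxa6 and Hoxa9. Over all 12283 tested genes, 16.4% fell, 20.6% rose and 37% changed in either direction. Hoxa4, Hoxa7 and Hoxa10 had lower means in GSH but did not pass. The 10 log2 changes were all below 0, with a median of -0.27, whereas 45.9% of all tested changes were below 0 and their median was 0.02. The other 21 members of that table did not reach the mean of 1 FPKM required for the test. Hoxa4 and Hoxa9 reached it through their WT values, with GSH means of 0.901 and 0.812 FPKM. With no minimum level, 16 of all 31 members had changes below 0, against 47.3% of all 30803 genes. In bulk RNA, fewer cells that express a gene and less RNA per cell cannot be told apart.

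Hoxa5 stood at 32.2, 31.2 and 30.6 FPKM in WT 1 to 3 and at 25.2, 23.1 and 25.5 FPKM in GSH 1 to 3. All GSH values were below all WT values, and the gap between the groups was wider than the range within either. The mean went from 31.3 ± 0.821 to 24.6 ± 1.30 FPKM (SD, n = 3 each), a log2 change of -0.34 (SE 0.04, adjusted p = 0.00315 with limma). Hoxa6 stood at 21.8, 21.7 and 22.4 FPKM in WT and at 17.0, 16.4 and 17.4 FPKM in GSH. It was the most closely replicated of the members, with no overlap between the groups. Its log2 change was -0.36 (SE 0.03, adjusted p = 0.00178), and GSH held 77.2% of the WT mean. No exon base of either gene is shared with another annotated gene.

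Hotairm1 (ENSMUSG00000087658), a long noncoding RNA known from myeloid differentiation and from control of the low-numbered Hoxa genes, had the largest log2(FPKM + 1) difference among the tested members. It stood at 6.40, 4.13 and 6.55 FPKM in WT 1 to 3 and at 3.72, 2.17 and 2.84 FPKM in GSH 1 to 3. The highest GSH value lay just under the lowest WT value, and WT 2 stood apart from the other WT libraries. These values rest on 144, 86 and 144 reads in WT and on 115, 42 and 54 reads in GSH. GSH held 51.1% of the WT mean (5.69 ± 1.35 to 2.91 ± 0.777 FPKM), with a log2 change of -0.77 (SE 0.19, adjusted p = 0.0233). Without GSH 2 the change was -0.63 (adjusted p = 0.0612), and without WT 1, WT 3 or GSH 3 it also missed the threshold (adjusted p = 0.0749, 0.0674 and 0.0631). With WT 1, WT 2 and GSH 1 alone the change was -0.39, and with WT 3, GSH 2 and GSH 3, the libraries with secreted-protein transcripts, alone it was -1.11, neither past the threshold.

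In the annotation 43.1% of Hotairm1's exon bases are shared with other genes, on both strands. The library kit named in the labels does not mark strand, so reads from shared bases cannot be told apart.

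Among the other anterior genes, Hoxa2 stood at 3.28, 3.72 and 3.28 FPKM in WT and at 3.01, 2.59 and 2.16 FPKM in GSH. The groups did not overlap, and the GSH values were the more spread. Its log2 change was -0.31 (SE 0.09, adjusted p = 0.0413). That call was lost without any 1 of WT 1, WT 2, WT 3, GSH 2 or GSH 3 (adjusted p = 0.0734 to 0.115). Hoxa3 stood at 4.42, 4.55 and 4.32 FPKM in WT and at 3.71, 3.70 and 3.88 FPKM in GSH, again without overlap. Its change was smaller but tightly replicated (log2 change -0.19, SE 0.04, adjusted p = 0.0106). In Hoxa3, 27.1% of exon bases are shared with other genes, including the antisense RNAs Hoxaas2 and Hoxaas3. Hoxa4, an anterior trunk gene, stood at 1.17, 1.21 and 0.965 FPKM in WT and at 0.728, 1.06 and 0.914 FPKM in GSH. The groups overlapped, and it did not pass (log2 change -0.15, adjusted p = 0.232).

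At the posterior side of the active stretch, Hoxa7 stood at 3.93, 4.44 and 3.83 FPKM in WT and at 3.57, 3.75 and 3.77 FPKM in GSH. The groups did not overlap, but the gap was small and the test was not passed (log2 change -0.11, adjusted p = 0.174). Hoxa9, a regulator of blood progenitors and a leukaemia oncogene, stood at 1.37, 1.23 and 1.03 FPKM in WT and at 0.867, 0.816 and 0.754 FPKM in GSH. With 67.2% of the WT mean left, it kept the smallest share of its WT mean among the tested coding members (log2 change -0.28, SE 0.08, adjusted p = 0.0360). It was tested only through its WT values, its GSH mean being 0.812 FPKM, so this rank depends on the filter. The call was lost without any 1 GSH library (adjusted p = 0.0679 to 0.0971), and without WT 1 or WT 2 it fell under the mean required for testing. Hoxa10 stood at 4.05, 4.04 and 4.18 FPKM in WT and at 3.93, 2.93 and 3.00 FPKM in GSH. GSH 1 lay close to WT and the other GSH libraries well below it, with a log2 change of -0.25 (adjusted p = 0.0654) that reached -0.36 (adjusted p = 0.00773) without GSH 1. GSH 2 and GSH 3 are also the GSH libraries with secreted-protein transcripts. With WT 3, GSH 2 and GSH 3 alone the Hoxa10 change was -0.38 (adjusted p = 0.0983), and with WT 1, WT 2 and GSH 1 alone it was -0.033 (adjusted p = 0.782). The part of those transcripts' source in the Hox values was not tested.

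**Figure D2:**
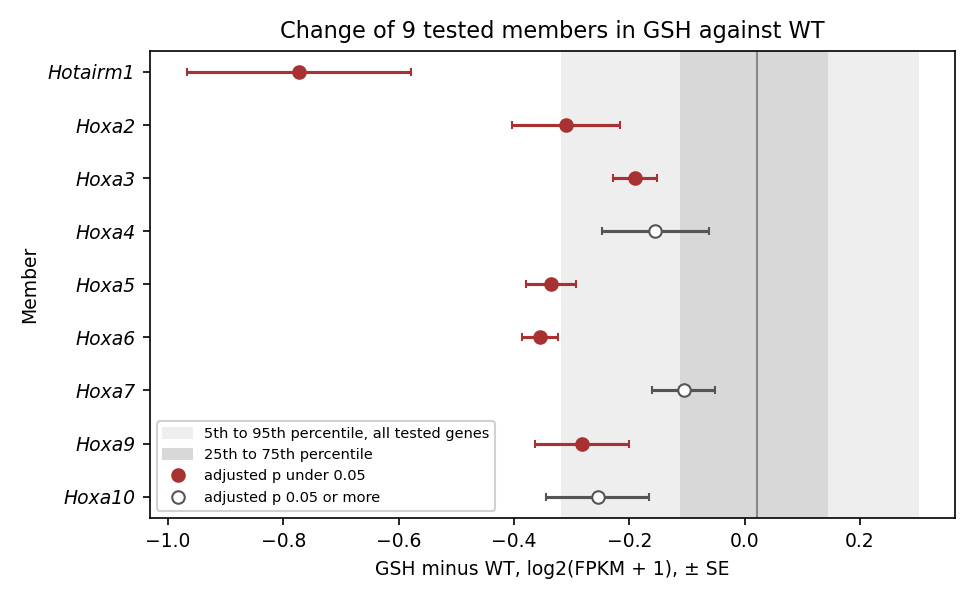
Difference between GSH and WT in mean log2(FPKM + 1) (horizontal axis, bars ± SE, 3 libraries a group) for 9 tested members in order along the cluster (vertical axis), filled where the adjusted p was under 0.05. Grey bands give the 5th to 95th and 25th to 75th percentiles of all 12283 tested genes and the line their median of 0.02; all 9 lie left of that line, and Hotairm1 at -0.77 lies farthest.

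The level of the whole Hoxa cluster was lower in GSH, with similar shares for its leading genes. The Hoxa sum was 73.4, 73.5 and 72.2 FPKM in WT 1 to 3 and 59.3, 55.7 and 58.7 FPKM in GSH 1 to 3, so GSH held 79.3% of the WT level (80.4% in recovered reads scaled to the library total). No GSH sum came near the WT range. Within the sum, Hoxa5 took 42.9% in WT and 42.5% in GSH, and Hoxa6 took 30.1% and 29.3%. Relative to the WT mean, the median change of the 10 tested transcripts was -0.22, -0.29 and -0.30 on the log2 scale in GSH 1 to 3. All 10 lay below the WT mean in each GSH library, against 6, 4 and 6 in WT 1 to 3. Some lay barely below it, such as Hoxa4 at -0.03 in GSH 2. The share of all genes below their WT mean in each library was not computed. In 8 of the 10, every GSH library lay below every WT library, which was so for 23.5% of all tested genes, and in 0 did every GSH library lie above every WT library, as in 29% of all genes. Hoxa4, at 1.06 FPKM in GSH 2, was an exception. Both Hoxa4 and Hoxa9 were among the 10 through their WT values. These sums and medians carry no test.

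The calls for Hoxa3, Hoxa5 and Hoxa6 were met under 14 of 16 alternative settings, all except those with 3 libraries and a single library in 1 group. Those for Hotairm1 (7 of 16), Hoxa2 (4 of 16) and Hoxa9 (5 of 13) were less stable. The summed level of 11 fibroblast markers was higher in GSH, without a test of the sum. It was 11.3, 17.9 and 22.9 FPKM in WT 1 to 3 and 23.1, 38.3 and 27.8 FPKM in GSH 1 to 3, with no marker at 0 other than 1 in WT 3. Col1a1, a collagen gene, made up much of that difference. It stood at 0.590, 3.39 and 10.4 FPKM in WT and at 9.36, 19.5 and 8.84 in GSH. The groups overlapped, with WT 3 above GSH 1 and GSH 3. Postn (2.78 to 3.43 in WT and 2.61 to 3.00 in GSH) and Pdgfra (2.15 to 2.23 and 2.05 to 2.29) overlapped too. The part of the fibroblast markers' source in the Hox result was not tested. Of all called genes, 55.7% were higher in GSH. That share was 34.2% when the libraries were scaled to their totals without mitochondrial genes, a scaling under which 7 members fell, Hoxa10 being added, and 22.7% of all genes fell. With no minimum level, 3 of all 31 members of the table fell (Hoxa3, Hoxa5 and Hoxa6), against 4.51% of all 30803 genes.

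Outside the Hoxa cluster the WT and GSH libraries held few Hox reads. Each library had 28 to 65 reads over all Hoxb, Hoxc and Hoxd genes, against 2155 to 3677 over the Hoxa genes, and they made up 0.977 to 1.58% of Hox FPKM. The Hoxd genes held most of them. Hoxd8, a trunk gene, ranged from 0.205 to 0.391 FPKM (12 to 23 reads) and Hoxd4, a gene of the upper neck, from 0.0898 to 0.263 FPKM (5 to 17 reads). Hoxc6 ranged from 0.0413 to 0.194 FPKM and Hoxc4 from 0.0355 to 0.0904 FPKM. Among the 8 Hoxb genes no library exceeded 0.119 FPKM, reached by Hoxb6 in WT 3 with 5 reads. In limma's voom test on the recovered reads, 4 of these genes had the required 10 reads, and 0 passed, against 22.4% of all 21130 genes in that test: Hoxc4 (log2 change 0.39), Hoxc6 (-1.12, adjusted p = 0.127), Hoxd4 (-0.77, adjusted p = 0.180) and Hoxd8 (-0.52, adjusted p = 0.214). At this depth none of their differences passed. The Hoxd sum was nevertheless lower in GSH, at 0.622, 0.483 and 0.612 FPKM in WT 1 to 3. It was 0.385, 0.359 and 0.367 FPKM in GSH 1 to 3, from 19 to 33 reads a library. The Hoxb and Hoxc sums overlapped between the groups. These sums carry no test.

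Noncoding RNAs of the clusters had been listed beside the members. Of 19 on the list, 7 were in the WT and GSH table and 3 could be tested, of which Hotairm1 fell. Hoxaas2, which runs antisense to Hoxa3, had means of 2.24 ± 0.245 FPKM in WT and 1.90 ± 0.0470 in GSH (log2 change -0.16, adjusted p = 0.111). Hoxaas3, antisense to Hoxa3 and Hoxa7, had 1.66 ± 0.200 and 1.59 ± 0.175 FPKM (log2 change -0.04, adjusted p = 0.737). Hottip, a noncoding RNA beside Hoxa13, was at 0.0187 FPKM or less in each library.

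Of 11 tested genes just outside the clusters, 3 rose and 1 fell, against 20.6% and 16.4% of all genes. The split was 2 risen and 2 fallen with relative log expression scaling and 1 and 2 with totals without mitochondrial genes. Skap2, an adaptor protein gene next to the Hoxa cluster, rose from 4.84 ± 0.104 to 5.48 ± 0.234 FPKM (log2 change 0.15, adjusted p = 0.0259; 0.10 and adjusted p = 0.123 with totals without mitochondrial genes). Tax1bp1, an autophagy receptor gene farther out on the other side, rose by 0.11 (adjusted p = 0.0446, and 0.296 under that scaling). Evx1, the homeobox gene next to Hoxa13, was at 0.0230 FPKM or less in every library. Near the other clusters, Atp5g2, an ATP synthase subunit gene, rose (log2 change 0.22, adjusted p = 0.00490), and Lnpk, which encodes an endoplasmic reticulum junction protein and lies beyond the Hoxd genes, fell (-0.22, adjusted p = 0.0248).

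Among the partners of Hox proteins, 2 of 6 tested TALE genes rose and 1 fell, where 20.6% and 16.4% of all genes did, and so few genes give no result about the list. Pknox1 rose by 0.20 on the log2 scale (adjusted p = 0.0238), whereas Pbx2 fell from 8.29 ± 0.291 to 6.88 ± 0.223 FPKM (-0.24, adjusted p = 0.00561). Meis3 had a log2 change of -0.16 and did not pass (adjusted p = 0.151). The Pknox1 call was lost with totals without mitochondrial genes (adjusted p = 0.0627).

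Of 25 Polycomb genes, all of which were tested, 10 fell and 4 rose, against 16.4% and 20.6% of all genes. Their median log2 change was -0.06. Cbx2, the chromatin-reading subunit of Polycomb repressive complex 1, had the smallest p and fell from 7.75 ± 0.370 to 5.22 ± 0.0574 FPKM (log2 change -0.49, adjusted p = 0.00162). Mtf2, an accessory subunit that guides the methylating complex to CpG-rich DNA, fell by 0.28 on the log2 scale (adjusted p = 0.00378). The histone-binding subunits Rbbp7 and Rbbp4, shared with other complexes, rose by 0.23 each (adjusted p = 0.00331 and 0.00365). Ezh2, Eed and Suz12, the core of the methylating complex, had log2 changes of -0.06, -0.06 and -0.02 and did not pass. The split was 13 fallen and 3 risen with totals without mitochondrial genes.

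Of 14 tested Trithorax genes and demethylases of the Polycomb mark, 2 fell and 1 rose, against 16.4% and 20.6% of all genes. With totals without mitochondrial genes, 4 fell and 0 rose. Men1, the menin subunit that tethers Trithorax methyltransferases, fell from 32.5 ± 0.408 to 28.9 ± 1.29 FPKM (log2 change -0.16, adjusted p = 0.0152). Kmt2d, an enhancer methyltransferase, fell by 0.19 (adjusted p = 0.0276). Ash2l, a core subunit of these enzymes, rose by 0.16 (adjusted p = 0.0186, and 0.0868 with totals without mitochondrial genes). Psip1, which joins menin to chromatin, had a log2 change of -0.11 (adjusted p = 0.0724, and 0.0250 with that scaling). Kmt2a, the methyltransferase best known for keeping Hoxa genes active, had a log2 change of -0.0043 (adjusted p = 0.934).

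Of 19 retinoic acid genes, 6 were tested, and 2 rose while 1 fell, against 20.6% and 16.4% of all genes. With totals without mitochondrial genes 1 rose and 2 fell. Rxra, the partner of retinoic acid receptors, rose from 3.32 ± 0.265 to 4.48 ± 0.260 FPKM (log2 change 0.34, adjusted p = 0.00721). Nrip1, a corepressor induced by retinoic acid, rose by 0.19 (adjusted p = 0.0218, and 0.0706 with totals without mitochondrial genes), and Rdh10, which makes retinaldehyde, fell by 0.13 (adjusted p = 0.0462). Rxrb had a log2 change of -0.09 and did not pass (adjusted p = 0.0667), but passed with relative log expression scaling (0.0471) and with totals without mitochondrial genes (0.0125). Of 3 tested upstream regulators, 2 rose: the cohesin subunit Rad21 (log2 change 0.19, adjusted p = 0.00646) and the boundary factor Ctcf (0.13, adjusted p = 0.0413, and 0.215 with totals without mitochondrial genes). Gmnn, an inhibitor of DNA replication licensing, had a log2 change of 0.11 (adjusted p = 0.302).

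The Cas9 libraries did not differ from the Ctrl library in any Hox gene past the test. Of 13 tested members 0 passed, as did 0% of all 11407 tested genes in limma's test (210 genes at an unadjusted p under 0.05, and 252 with 0 adjusted calls in voom on 14992 genes). The members' log2 changes were above 0 in 9 and below 0 in 4, with a median of 0.03 and -0.01 over all genes. The spread in this comparison comes from the 3 Cas9 libraries alone, since Ctrl had 1 library.

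Hoxa5 was again the most abundant, at 58.0 FPKM in Ctrl 3 and 61.3, 67.6 and 47.7 FPKM in Cas9 1 to 3. The Ctrl value lay inside the Cas9 range, with a log2 difference of 0.01 (SE 0.23). Hoxa6 stood at 15.0 FPKM in Ctrl 3 and at 14.3, 15.2 and 10.9 in Cas9 1 to 3 (log2 difference -0.16, SE 0.22). Cas9 3 was the lowest library for both genes. The Hoxa sum was 104 FPKM in Ctrl 3 and 103 ± 16.1 in Cas9.

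Hoxa2 stood at 11.5 FPKM in Ctrl 3 and at 9.85, 11.4 and 9.59 in Cas9 1 to 3. Hoxa10 stood at 9.15 and at 10.1, 10.0 and 7.93 FPKM. Hoxa3 stood at 2.96 and at 3.14, 3.30 and 2.73 FPKM. For Hoxa10 and Hoxa3 the Ctrl value lay inside the Cas9 range, and for Hoxa2 it lay just above it.

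Hoxa7 stood at 3.10 FPKM in Ctrl 3 and at 4.67, 3.55 and 2.84 in Cas9 1 to 3. Ctrl 3 lay inside the Cas9 range, with a log2 difference of 0.18 (SE 0.27). Hoxa4 (1.18 FPKM in Ctrl 3 and 0.894, 0.807 and 0.904 in Cas9) and Hoxa9 (1.16, and 0.858, 0.990 and 0.483) had Ctrl above all Cas9 libraries but did not reach the mean for testing. Hoxa11 was listed at 0 in 3 of these 4 libraries and had 5 reads in the other. Hoxa13 stood at 0.0968 FPKM in Ctrl 3 and at 1.04, 0.320 and 0.0438 in Cas9 1 to 3, so that Cas9 1 alone lay above 1 FPKM.

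**Figure D3:**
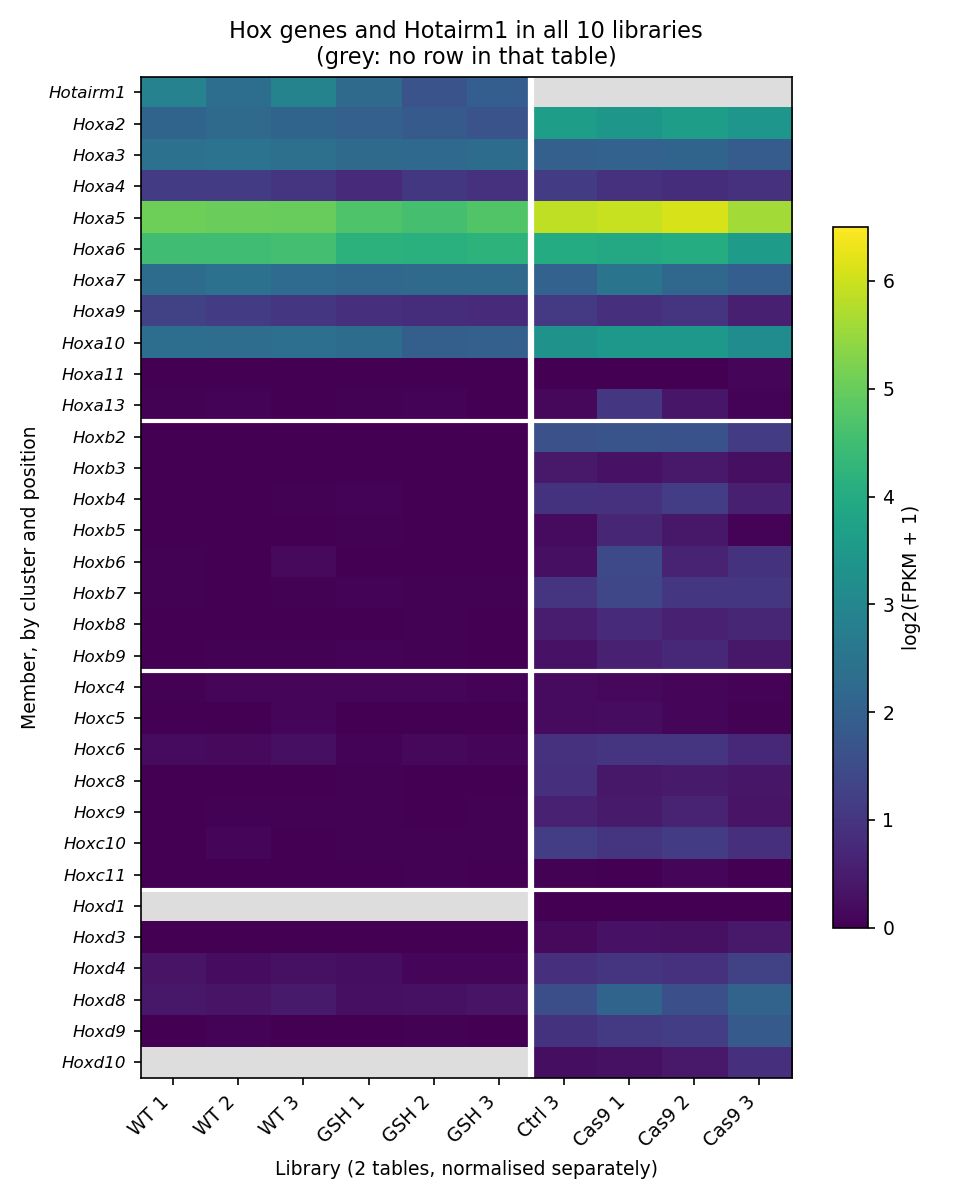
Level of 32 members as log2(FPKM + 1) (colour) in the 10 libraries (columns, with the separately normalised tables divided by a white line), by cluster and position (rows), with grey where a table has no value. The Hoxa band from Hoxa2 to Hoxa10 is coloured in all libraries, and the Hoxb, Hoxc and Hoxd genes are plotted at higher values in most Ctrl and Cas9 columns than in the WT and GSH columns.

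Hox RNA from outside the Hoxa cluster was measured in every Ctrl and Cas9 library. Hoxb, Hoxc and Hoxd genes together had 1189 to 1423 reads per library there and made up 11.3 to 15.4% of Hox FPKM. By cluster, Hoxb summed to 5.34 FPKM in Ctrl 3 and 6.77 ± 1.85 in Cas9, Hoxc to 3.81 and 2.83 ± 0.60, and Hoxd to 4.06 and 6.37 ± 1.88 (SD, n = 3 for Cas9). The leukocyte, fibroblast and endothelial marker sums of these libraries, given above for leukocytes and endothelium and 601 to 1874 FPKM for fibroblasts, stood far above those of WT and GSH. The part of such cells in the Hoxb, Hoxc and Hoxd values was not tested, and the table, the groups and the marker levels cannot be told apart.

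In the Hoxb cluster, Hoxb2, a hindbrain gene, stood at 2.05 FPKM in Ctrl 3 and at 2.22, 2.11 and 1.20 in Cas9 1 to 3. Hoxb7, a gene of the trunk also studied in breast tumours, stood at 0.976 and at 1.62, 1.03 and 1.05 FPKM. Hoxb6 stood at 0.206 and at 1.72, 0.561 and 0.949 FPKM. Ctrl 3 was the lowest library for Hoxb6 and Hoxb7 and within the Cas9 range for Hoxb2. The other 5 Hoxb genes of the table ranged from 0.0457 to 1.27 FPKM.

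In the Hoxd cluster, Hoxd8 stood at 1.97 FPKM in Ctrl 3 and at 3.26, 1.98 and 3.18 in Cas9 1 to 3. Hoxd9, a gene of the lumbar region and limb, stood at 0.935 and at 1.16, 1.28 and 2.60 FPKM, and Hoxd4 at 0.847 and at 1.01, 0.895 and 1.42 FPKM. In all 3 genes Ctrl 3 was the lowest library, but the differences did not pass (log2 differences 0.34, 0.43 and 0.18, with SE 0.28, 0.37 and 0.26). Cas9 3 was the highest library for Hoxd9 and Hoxd4. Hoxd1 was at 0 in each of the 4 libraries, where 3 reads over all of them correspond to 0.0113 FPKM, and Hoxd10 ranged from 0.183 to 0.870 FPKM. In the GENCODE M21 annotation, exons of Hoxd3 and Hoxd4 are largely shared with other genes, each other included (62.8% and 52.3% of their exon bases). Under that annotation their reads could be split either way. The Ctrl and Cas9 table used other lengths (2902 and 2560 bases, against 4191 and 2948), so the sharing in its gene models is not known.

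In the Hoxc cluster, Hoxc10, a gene of the hindlimb region, stood at 1.27 FPKM in Ctrl 3 and at 0.994, 1.25 and 0.875 in Cas9 1 to 3. Ctrl 3 was the highest library by a small margin (log2 difference -0.16, SE 0.24). Hoxc8, chosen after its values were seen, was the only Hox gene with an unadjusted p under 0.05 when no minimum level was set, at 0.843 FPKM in Ctrl 3 and 0.328, 0.379 and 0.314 in Cas9 1 to 3. It did not pass after adjustment. The other Hoxc genes lay below 1 FPKM in every library.

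**Figure D4:**
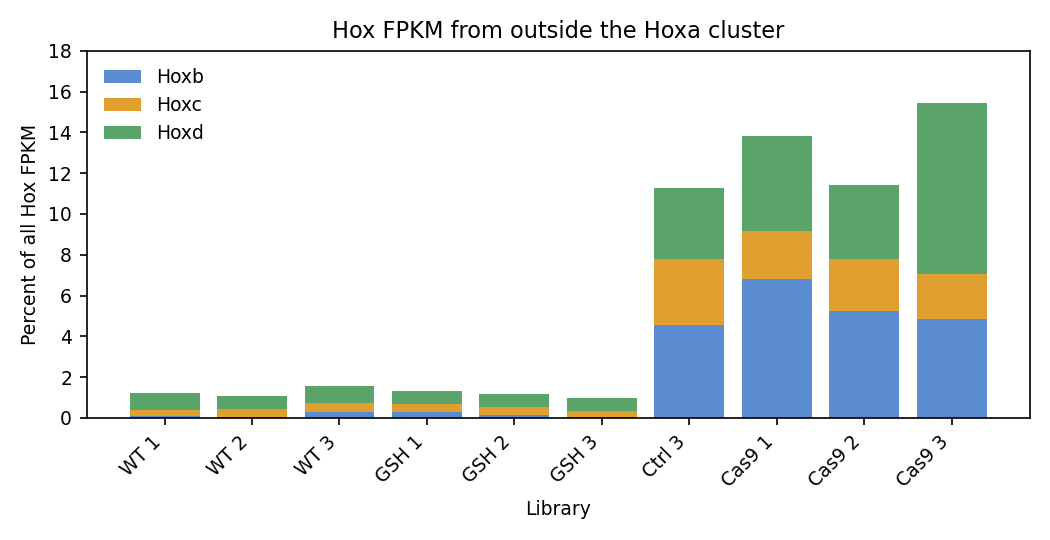
Percent of all Hox FPKM that came from the Hoxb, Hoxc and Hoxd clusters (stacked bars from 0, vertical axis) in each of the 10 libraries (horizontal axis). The 6 WT and GSH libraries lie between 0.977 and 1.58% and the 4 Ctrl and Cas9 libraries between 11.3 and 15.4%.

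None of the pathway lists had a called gene in Cas9 against Ctrl: 0 of 7 tested TALE genes, 0 of 24 Polycomb genes, 0 of 14 Trithorax genes and demethylases, 0 of 12 retinoic acid genes, 0 of 5 upstream regulators and 0 of 11 neighbours. Cas9 and Ctrl values of Skap2 were 70.3 to 73.3 and 68.5 FPKM.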

How the data were processed

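RNA sequencing values of 10 libraries (3 WT, 3 GSH, 3 Cas9, 1 Ctrl) were used, of 12 samples described. The deposited values carry no stated unit and were taken as FPKM, as the authors' scaling by gene length and library total fits the values. HTSeq (0.6.0), HISAT2 (2), Bowtie2 (2.2.3) and an older mouse build appear, without roles, in the processing notes of the submitters. Symbols matched 30190 of 30803 Ensembl identifiers. Recovered reads were whole for 99.9968% of WT and GSH genes (within 0.02 read, or 0.004 for 1095 genes read from their steps alone), using GENCODE M21 exon lengths for 29707 genes, and for 99.0657% of Ctrl and Cas9 genes (within 0.004), where they are the smallest whole numbers that fit. Replicates differed beyond sampling noise.

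Each contrast was fitted in its own table with limma 3.58.1 (R 4.3.3; lmFit, eBayes with trend, two-sided) on log2(FPKM + 1), over genes with a mean of 1 FPKM or more, with Benjamini-Hochberg adjustment over all of them at 0.05. Fold changes are on that scale and understate changes of weakly expressed genes. Members with a mean of 1 FPKM or more in any group, and Hotairm1, are given per library; from each pathway list up to 4 genes with the smallest p are named, and the 3 core Polycomb subunits, Kmt2a, Evx1, Hottip and Hoxc8 were added. Members and lists were chosen with earlier results of these data known. The values of 2 genes are not reported here. The scripts were tested on simulated data. Alternatives were another pseudocount, no filter, other scalings, voom on recovered reads, a replicate block, a library term, and leaving out libraries.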

Additional observations from a re-analysis of the deposited data

How the results depend on the processing

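The number of Hox members past the threshold in GSH against WT was 6 and moved to 3 with no filter on low values, to 3 with a term for WT 3, GSH 2 and GSH 3 (the libraries with secreted-protein transcripts), to 3 with no filter and a pseudocount of 0.1 (chosen after seeing the data), and to 3 to 6 on leaving out 1 library. With WT 3, GSH 2 and GSH 3 alone, 0 members and 0 of all genes passed (3401 genes at an unadjusted p under 0.05), and with WT 1, WT 2 and GSH 1 alone 0 members and 4 genes passed; the lone library is there assumed to vary like the others. Leaving out 1 library moved the 4547 called genes to 2998 to 3671. Among all genes, 2014 of 12283 fell in the main fit, 1607 of 12283 with the library term and 1389 of 30803 with no filter. With no filter and a pseudocount of 0.1, 1465 of 30803 fell, and on leaving out 1 library 1335 to 1631 fell. Scaling by relative log expression, or to totals without mitochondrial genes, moved the median of all genes by less than 0.1 and reversed no called member or named list gene.

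Same-numbered WT and GSH libraries deviated together in pairs 1 and 3 but not in pair 2 (correlations of deviations over 12283 genes 0.48, 0.21 and -0.11). WT 3 and GSH 2, which differ in number, had a correlation of 0.39, above that of pair 3. The numbers were therefore not taken as pairs. With the replicate number as a block, 3867 genes and 4 members passed, Hoxa2 (adjusted p = 0.0522) and Hoxa9 (0.0510) being lost.

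In Cas9 against Ctrl, 4 members, none past the threshold, changed sign: leaving out 1 Cas9 library gave -0.012 to 0.091 for Hoxa3, -0.098 to 0.15 for Hoxa5, -0.032 to 0.12 for Hoxa10 and -0.22 to 0.052 for Hoxb2. For that comparison, the scaling without mitochondrial genes could not be made, and Ctrl 3 could not be left out. Reads per gene limit the Hoxb, Hoxc and Hoxd genes in WT and GSH. The cause of these changes was not tested.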
